A study of Mus musculus with 7 samples.

Results

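RelB binding in unstimulated dendritic cells was set against RelA binding in the same kind of cells after 1 h of lipopolysaccharide (LPS), to ask whether RelB already on chromatin marks the regions that later hold RelA, and which RelA regions lack it. The comparison used all 93611 regions of the deposited table and 3 of the 7 libraries of the series. These were RelB chromatin immunoprecipitation (ChIP) from wild-type (WT) C57BL/6 cells with no treatment (0 h), RelA ChIP from WT cells given LPS at 10 ng/mL for 1 h, and input DNA of WT cells, for which the labels give no time. The other 4 libraries were used as description only: RelB ChIP of WT cells at 1 h, and RelB ChIP at 0 h and at 1 h and RelA ChIP at 1 h of cells labelled RelBko, which lack RelB and whose allele is not given in the sources used here. All were dendritic cells grown from bone marrow in GM-CSF (20 ng/ml) plus IL-4 (10 ng/ml), a culture that can also hold macrophages and granulocytes. Proteins were crosslinked with DSG (1.0 mM), which joins proteins to each other, and with PFA (1.0%). The treatment text names a CpG oligonucleotide reagent beside LPS, and the sample names, which give LPS, were followed. The antibody labels of the RelB samples name anti-RelB, whereas the protocol text of all samples names only anti-RelA, and the antibody labels were used. Each group held 1 library, so no difference could be set against a spread between replicates and no p-value is given.

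NF-kB dimers are built from a small family of proteins that includes RelA and RelB. In resting cells RelA is held mostly in the cytoplasm by inhibitors such as IkB-alpha, the product of Nfkbia, and inflammatory signals release it within minutes. RelB is best known as the partner of the processed Nfkb2 product in the noncanonical pathway, which is restrained by Traf2, Traf3, Birc2 and Birc3, and it is needed for the maturation of several dendritic cell types. Both subunits bind short kB sites as dimers, and a ChIP signal shows that a subunit was near a region in some of the cells, not how many cells or which dimer.

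The promoters of 4 genes are shown because their regions stand for both directions of the ratio and for RelA without basal RelB. Those of Nfkbia, Traf3 and Irf1 held strong signal of both factors. RelB at 0 h was the higher at Nfkbia and Traf3, and RelA at 1 h was the higher at Irf1. The promoter of Dcbld2, which encodes a membrane receptor, had the strongest RelA among promoters clearly without basal RelB. That class is set by the rules given below, and weak RelB signal can remain in it. Each sequence runs from 250 bases before to 50 bases after the start of transcription in RefSeq (GRCm38.p6), 5′ to 3′ on the strand of the gene, and capitals mark matches to the kB consensus. The deposited regions are in mm9, so the positions of the 2 builds are not compared.
Nfkbia, chr12:55492598-55492897, minus strand: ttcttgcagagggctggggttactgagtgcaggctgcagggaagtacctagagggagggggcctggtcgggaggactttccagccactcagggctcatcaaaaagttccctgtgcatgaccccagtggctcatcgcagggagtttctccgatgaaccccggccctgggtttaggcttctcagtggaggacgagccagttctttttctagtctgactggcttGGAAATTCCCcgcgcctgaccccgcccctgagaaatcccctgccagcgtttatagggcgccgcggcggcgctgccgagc
Traf3, chr12:111166120-111166419, plus strand: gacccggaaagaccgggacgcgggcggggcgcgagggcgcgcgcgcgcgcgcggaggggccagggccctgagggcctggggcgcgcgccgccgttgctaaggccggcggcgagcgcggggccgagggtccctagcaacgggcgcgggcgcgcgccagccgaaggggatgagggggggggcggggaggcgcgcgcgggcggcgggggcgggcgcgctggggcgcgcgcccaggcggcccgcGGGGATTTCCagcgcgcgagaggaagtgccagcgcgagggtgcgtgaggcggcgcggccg
Irf1, chr11:53769764-53770063, plus strand: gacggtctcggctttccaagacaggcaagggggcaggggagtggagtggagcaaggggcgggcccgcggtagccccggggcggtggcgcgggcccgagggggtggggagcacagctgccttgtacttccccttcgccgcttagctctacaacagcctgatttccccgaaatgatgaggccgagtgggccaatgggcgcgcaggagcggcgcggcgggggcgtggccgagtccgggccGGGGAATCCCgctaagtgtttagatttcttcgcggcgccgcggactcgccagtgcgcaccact
Dcbld2, chr16:58408285-58408584, plus strand: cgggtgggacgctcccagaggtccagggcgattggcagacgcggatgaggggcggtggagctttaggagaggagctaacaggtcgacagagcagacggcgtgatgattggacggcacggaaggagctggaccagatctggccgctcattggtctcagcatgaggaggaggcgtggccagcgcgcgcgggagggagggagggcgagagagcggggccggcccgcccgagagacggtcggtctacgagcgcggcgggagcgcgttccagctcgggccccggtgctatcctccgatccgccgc
The kB match began 29 bases before the start of Nfkbia, 10 before that of Traf3 and 13 before that of Irf1. The window of Dcbld2 held none, nor did a second RefSeq window of Irf1. By the deposited distance the Dcbld2 region lay 288 bp upstream of the TSS, beyond the 250 bases of the window. Much of the sequence of that region was therefore not read.

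Values are RPKM, reads scaled to the length of the region and to the reads of the library, as deposited. The RelB library at 0 h was the deeper, with 35064429 reads against 17590435 for RelA and 13188833 for the input, and 38.4%, 37.9% and 3.52% of these lay in the regions. A region of the median length of 361 bp with 1 read stands at 0.0790, 0.157 and 0.210 RPKM in these libraries, so weak values are coarsest in the input. A region was called enriched at 2 RPKM or more and 2-fold or more over the input, after 0.5 RPKM was added to both. Ratios of reads carry exact (Clopper-Pearson) 95% intervals and shares carry Wilson 95% intervals. These intervals reflect counting alone, and without molecular identifiers several reads can come from 1 molecule.

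RelA after LPS lay mostly where RelB had been before LPS. Of 76741 RelA-enriched regions, 63140 (82.3%, 82.0 to 82.5) were enriched for RelB at 0 h, against 7883 of the 16870 regions not enriched for RelA (46.7%) and 75.9% of all regions. The remaining 13601 RelA regions, 17.7% of the RelA-enriched ones, lacked basal RelB by the rule, which does not mean that RelB was absent. How the regions were chosen is not given in the sources used here, so these shares apply to the table and not to the genome. Read the other way, 88.9% of the 71023 regions with basal RelB held RelA at 1 h. A library of the same RelB antibody from RelBko cells at 0 h was enriched at 28.6% of RelA regions and at 3.24% of the others, so some of the antibody's signal was present where RelB is labelled as absent. Of the 63140 regions with both, 87.7% stood 2-fold or more above that library at 0 h.

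The stronger the RelA signal, the more regions had basal RelB. The share was 56.1% at 2 to 4 RPKM of RelA, 78.9% at 4 to 8, 94.2% at 8 to 16 and 99.9% at 64 or more. Without basal RelB were 8 of 5338 regions at 32 to 64 RPKM and 1 of 989 at 64 or more. From the weakest to the strongest of these classes, with 16 to 32 RPKM included, the median RelB level at 0 h was 2.45, 5.01, 10.0, 19.1, 37.0 and 68.4 RPKM, within or near the RelA range that defined each class. The RelBko antibody signal was enriched in 4.13% of the weakest and 96.8% of the strongest class, at medians of 0.951 and 8.51 RPKM, and the input median moved from 0.673 to 1.56 RPKM. Basal RelB gave the same picture: 67.0% of regions at 2 to 4 RPKM of RelB held RelA, 98.0% at 8 to 16 and all 1744 at 64 or more.

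**Figure D1:**
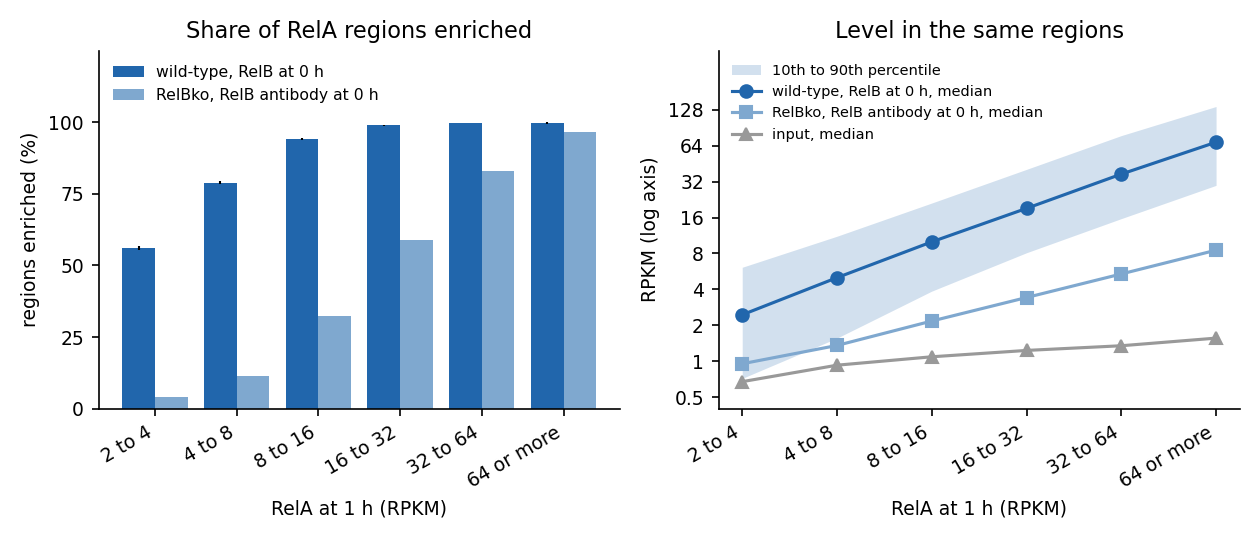
Left, percent of RelA-enriched regions that were enriched with the RelB antibody at 0 h in WT cells (dark bars, error bars are Wilson 95% intervals) and in RelBko cells (light bars), by RelA signal at 1 h in RPKM. Right, median RPKM in the same classes for both RelB libraries and the input on a log axis, with the 10th to 90th percentile of the WT library shaded. The WT share runs from 56.1% to 99.9% and its median from 2.45 to 68.4 RPKM.

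Regions were also compared by rank. Across all 93611 regions the Spearman correlation of RelA with basal RelB was 0.798, a description over points that share the regions and their chromatin. The same value was 0.878 for RelB at 1 h, 0.933 for RelA in RelBko cells, 0.706 for the RelB antibody in RelBko cells at 0 h and 0.456 for the input. Of the 1000 strongest RelA regions, 400 were among the 1000 strongest basal RelB regions, 427 among those of the RelB antibody in RelBko cells at 0 h, 555 among those of RelB at 1 h and 811 among those of RelA in RelBko cells. By this count basal RelB in WT cells shared no more of the 1000 strongest RelA regions than the antibody signal in RelBko cells did. At deeper cuts basal RelB in WT cells shared more, 2913 against 2695 of the 5000 strongest and 6603 against 6024 of the 10000 strongest. The correlation of RelA with basal RelB was 0.847 in promoters and 0.780 between genes.

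Over the 84624 regions enriched in either library, RelA at 1 h was 2-fold or more above basal RelB in 14458 (17.1%) and 2-fold or more below in 8981 (10.6%), with a median log2 ratio of 0.07. Of the regions 2-fold apart, 61.7% were higher for RelA, but this split depends on scaling: with both ChIP libraries scaled to the input on regions enriched in neither, 5519 were higher and 9997 lower, 35.6% were higher, and the median log2 ratio shifted by -0.34. A ratio between 2 antibodies is one of signal and not of bound molecules, and in this ratio the antibody and the time differ together. RelB at 1 h is therefore given beside the regions the results turn on. Direction at single regions is read relative to the other regions.

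**Figure D2:**
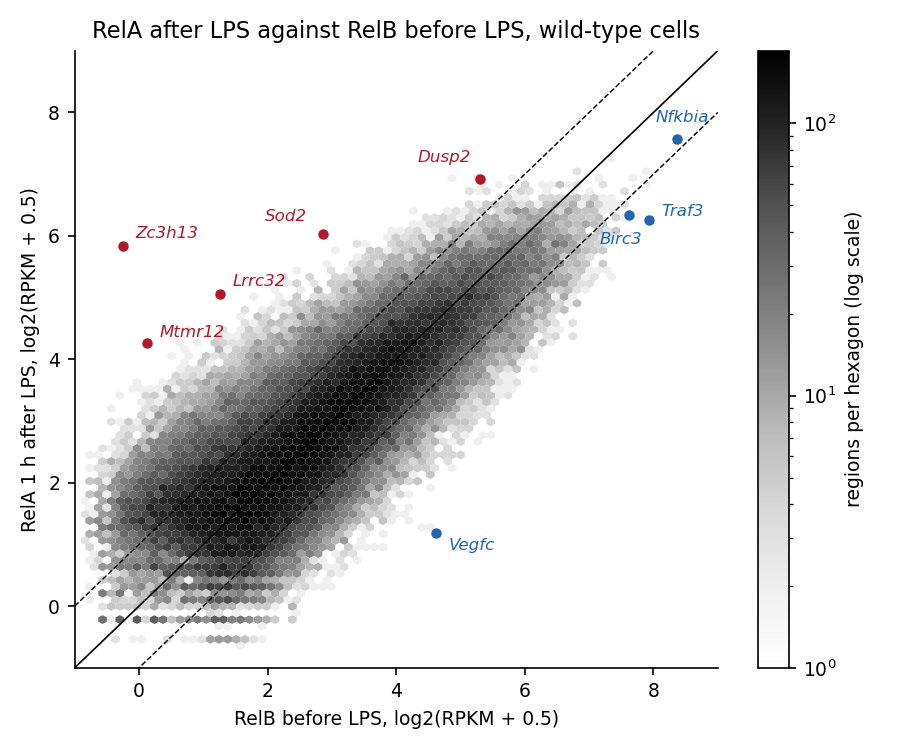
Each hexagon counts regions by RelB at 0 h (x axis) and RelA at 1 h (y axis), both as log2(RPKM + 0.5), with shade for the number of regions on a log scale. The solid line marks equal values and the dashed lines a 2-fold difference, red points are named regions with RelA higher and blue points with RelB higher. Most regions lie between the dashed lines, and Zc3h13, Mtmr12 and Lrrc32 sit far above them.

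Promoters stood apart from distal regions. In regions annotated as promoters 92.7% of RelA regions had basal RelB, against 81.0% in introns and 80.6% between genes, and only 1.71% of compared promoter regions had RelA 2-fold or more below basal RelB, against 11.8% and 12.4%. RelA 2-fold or more above basal RelB was also less common in promoters, 14.8% against 17.9% and 16.4%. The median log2 ratio was 0.31 in promoters, 0.01 in introns and -0.04 between genes. By distance it was 0.31 within 250 bp of a transcription start site (TSS), 0.46 from 250 to 1000 bp and -0.22 beyond 100 kb. Promoters also held stronger RelA, and at a like RelA level of 2 to 8 RPKM the share with basal RelB was 78.2% in promoters, 67.9% in introns and 67.7% between genes. Over 20 chromosomes the share with basal RelB ran from 80.3% to 83.4%.

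The region of highest RelA within 100 kb of a gene's TSS was at Nfkbia, which was second for basal RelB. The promoter region of Nfkbia (chr12:56593546-56593910, mm9) held 328 RPKM of RelB at 0 h and 189.5 RPKM of RelA at 1 h, against 1.87 in the input, with RelB at 207 at 1 h and RelA at 191 in RelBko cells. Basal RelB was thus 1.73-fold the RelA signal (1.62 to 1.85). The RelB antibody in RelBko cells gave 23.8 RPKM there at 0 h. An intergenic region 8304 bp from the TSS of Gtf3c5, a subunit of an RNA polymerase III factor, had the most basal RelB within that distance, 376 RPKM, and 169 RPKM of RelA. The next regions of highest RelA, 1 per gene, were assigned to Cuedc1 (177 RPKM of RelA, 133 of basal RelB), Rnf19b (163 and 236), Mob3a (153 and 199), Rn45s (152 and 164), Sbf2 (148 and 51.5) and Nfkb2 (145 and 105). Rn45s is a ribosomal RNA repeat, and its region stood at 18.0 RPKM in the input and 90.1 RPKM with the RelB antibody in RelBko cells at 1 h. Further regions of highest basal RelB lay near Sbno2 (284 RPKM of RelB, 77.2 of RelA), Nrp2 (262 and 103), Traf3 (244 and 76.2), Cyp11a1 (238 and 118) and Mefv (238 and 111), and a second region near Rnf19b had 295 and 133. All 7 regions in that group other than that of Nfkbia had RelA 2-fold or more below basal RelB. The group was picked for high basal RelB, which favours a low ratio. Over all compared regions the share was 10.6%.

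Genes were next described by lists. A gene was represented by 1 of the regions assigned to it within 100 kb, the one where RelA and basal RelB averaged highest. This choice by the same 2 libraries favours a region that holds both factors. Over all 18214 genes that region held both factors in 85.8%, RelA stood 2-fold or more higher in 14.2% and 2-fold or more lower in 9.77%, and the median log2 ratio was 0.09. With the libraries scaled to the input the balance turned, with 1537 genes higher and 2549 lower. The lists were chosen for this cell type with earlier results of these data known, and 258 of their 273 genes were measured.

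All 18 measured genes of NF-kB subunits and feedback held both RelA and basal RelB, at medians of 89.2 and 104 RPKM, and their median log2 ratio was -0.26. None had RelA 2-fold or more higher. Of all 195 RelA regions of these genes within 100 kb, 173 (88.7%) had basal RelB, against 82.3% of all RelA-enriched regions. RelA was 2-fold or more lower at 4 of the 18, Birc3, Birc2, Cyld and Tnip3. With the strongest region within 10 kb of the TSS 3 were lower, and with all regions of a gene averaged none was. At the Birc3 region (chr9:7872828-7873188) basal RelB was 196 RPKM and RelA 80.6 RPKM, a basal RelB signal 2.43-fold the RelA signal (2.21 to 2.68). At Birc2, its neighbour, they were 57.0 and 21.2 RPKM. Both genes encode cIAP ubiquitin ligases. At the promoter of Cyld, a deubiquitinase that limits NF-kB, they were 61.7 and 26.7 RPKM, and at a region 73496 bp from Tnip3, an A20-binding inhibitor, 119 and 49.5 RPKM. Nfkb2 and Tnfaip3, the gene of A20, had the highest RelA after Nfkbia, with 105 and 161 RPKM of basal RelB and 145 and 131 RPKM of RelA. The largest ratio in favour of RelA in this list was at Bcl3, 112.6 RPKM of RelA and 65.8 of basal RelB.

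The noncanonical pathway and lymphoid chemokine list had 15 measured genes, 14 with both factors, and 1, Cxcl12, with RelA at 2.84 RPKM and basal RelB at 1.71 RPKM and not enriched. The median log2 ratio of the list was 0.24, against 0.09 for all genes. RelA was 2-fold or more lower at Traf2, Traf3 and Chuk, and higher at Tnfrsf13c, the receptor for the B cell survival factor BAFF. The number of lower genes was 2 with the region within 10 kb of the TSS and 1 with regions averaged. At the Traf3 promoter (chr12:112404410-112404764) basal RelB was 244 RPKM, RelB at 1 h 121 RPKM and RelA 76.2 RPKM, against 1.71 RPKM in the input. Basal RelB there was 3.20-fold the RelA signal (2.91 to 3.54). At Traf2, its partner in degrading the kinase NIK, basal RelB was 150 RPKM and RelA 37.6 RPKM. Relb itself stood at 104 and 89.0 RPKM.

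All 31 cytokine and chemokine genes held both, with a median log2 ratio of 0.04. RelA was 2-fold or more higher at 7: Csf1, Csf2, Cxcl1, Cxcl2, Ebi3, Il12a and Il27. The largest of these ratios was at Cxcl1, a neutrophil-attracting chemokine, with 26.6 RPKM of RelA and 4.74 of basal RelB. Ebi3 and Il27, whose products pair as interleukin 27, had 102.7 and 59.8 RPKM of RelA and 35.6 and 24.1 RPKM of basal RelB. RelA was 2-fold or more lower at Il12b (48.8 and 151 RPKM) and Il1b (36.3 and 79.4). The strongest RelA regions of the list were at Cxcl16 (130 RPKM, 234 of basal RelB), Il1a (114 and 149) and Tnf (111 and 66.0). At the Tnf promoter RelB had 130 RPKM at 1 h, so there RelB at 1 h and RelA both stood above basal RelB.

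Dendritic cell maturation genes held both factors in 26 of 26, with a median log2 ratio of -0.25. RelA was 2-fold or more lower at Cd274 and Pdcd1lg2, the ligands of the inhibitory receptor PD-1, at Ccr7, which guides mature dendritic cells to lymph nodes, at Cd200 and at Birc2. Over the whole list the counts were 5 lower and 2 higher. They were 3 lower and 3 higher with the region within 10 kb of the TSS, and 0 lower and 1 higher with a gene's regions averaged. Cd274 had 26.7 RPKM of RelA and 97.5 RPKM of basal RelB, and Ccr7 had 62.0 and 149 RPKM. RelA was higher at Tnfsf9 (67.6 and 18.1) and Aldh1a2 (53.3 and 12.7), the retinoic acid enzyme of migratory dendritic cells. Cd40, the strongest RelA region of the list, had 124 RPKM of RelA, 68.7 RPKM of basal RelB and 133 RPKM of RelB at 1 h. Cd83 had 119 RPKM of RelA and 135 of basal RelB.

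Among 26 interferon and interferon-stimulated genes 25 held both, with RelA lower at Socs1, Ddx58, Ifnb1 and Oasl1 and higher at Ifit2 and Oas1a, of which Oas1a was not enriched for basal RelB (9.58 and 2.14 RPKM). The strongest were Cxcl10 (71.0 RPKM of RelA, 114 of basal RelB) and Irf1 (69.2 and 39.4). All 28 immediate early genes held both, with RelA higher at Dusp2, Egr1, Fosl1 and Nr4a1 and lower at Klf4. At the Dusp2 region (chr2:127160962-127161336), near a phosphatase of MAP kinases, basal RelB was 39.0 RPKM, RelB at 1 h 138 RPKM and RelA 121 RPKM, a RelA signal 3.10-fold that of basal RelB (2.77 to 3.47).

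All 20 survival and stress genes held both, and 3 had RelA higher, Sod2, Ptgs2 and Bcl2l1, and 2 lower, Bcl2a1b and Gadd45a. The intron region of Sod2 (chr17:13202927-13203312), the mitochondrial superoxide dismutase, had the largest ratio of all list genes with both factors. Basal RelB there was 6.80 RPKM, RelB at 1 h 26.3 RPKM, RelA 64.9 RPKM and RelA in RelBko cells 59.2 RPKM, so RelA was 9.56-fold basal RelB (7.62 to 12.1). All 19 LPS sensing and signalling genes held both. RelA was higher at Tbk1 (67.8 and 15.5 RPKM), Ticam2, Myd88 and Irak3 and lower at Ikbke and at Ly96, the co-receptor of TLR4. All 23 myeloid and dendritic lineage genes held both, with RelA lower at Lyz1, Spi1, Klf4, Adgre1 and Cebpa and higher at Mertk. This direction depended on the region: within 10 kb of the TSS 3 were higher and 0 lower, with a median log2 ratio of 0.09 in place of -0.27, and with regions averaged none passed 2-fold either way. Spi1, the gene of the myeloid factor PU.1, had 148 RPKM of basal RelB and 54.7 RPKM of RelA. All 19 housekeeping genes held both as well, with RelA higher at 3 (Polr2a, Ppia and Rplp0) and lower at 2 (Gusb and Ywhaz), so presence of both factors near a gene was not particular to the inflammatory lists. Over all RelA regions of the list genes within 100 kb, 94.3% had basal RelB in the housekeeping list. In the other lists above this share ran from 85.9% (LPS signalling) to 91.5% (maturation).

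Markers of other blood cells had weaker regions, with list medians of 7.90 to 17.2 RPKM of RelA against 23.0 to 89.2 RPKM in the lists above. Of 12 measured neutrophil genes 6 held both. At 6 RelA was enriched and basal RelB was not: Camp, Lcn2, Mmp8, Ngp, Prtn3 and S100a8. At Mmp8 and Ngp RelA was less than 2-fold above basal RelB, so these only missed the rule. Ngp had 3.68 RPKM of RelA and 1.67 of basal RelB, with 0.359 in the input. The Lcn2 promoter region, near the gene of an iron-scavenging granule protein, had 12.4 RPKM of RelA, 0.886 of basal RelB, 1.49 of RelB at 1 h, 6.13 of RelA in RelBko cells and 1.07 in the input. Camp, an antimicrobial peptide gene, had 15.2 RPKM of RelA and 1.48 of basal RelB at its promoter. The list's median log2 ratio was 0.93. The strongest RelA regions of this list were those of Mmp9 (36.3 RPKM of RelA, 37.6 of basal RelB) and Cxcr2 (33.9 and 60.6). Of 9 B cell genes 7 held both, and Fcer2a and Pax5 were enriched for RelA but not for basal RelB. RelA was 2-fold or more higher at 4 of the 9 and lower at 1, Cr2. Of 11 T and NK cell genes 9 held both, and Lck and Zap70 were enriched for RelA but not for basal RelB. At Lck RelA was less than 2-fold above basal RelB. RelA was 2-fold or more lower at Cd4, Cd8a, Cd8b1 and Klrb1c. Klrb1c had 34.8 RPKM of RelA and 104 of basal RelB. Of 8 erythroid and mast cell genes 5 held both, and Kit, the stem cell factor receptor gene, had 18.4 RPKM of RelA and 46.2 of basal RelB. ChIP signal does not measure the RNA of these genes, and the share of each cell type in the cultures was not tested.

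**Figure D3:**
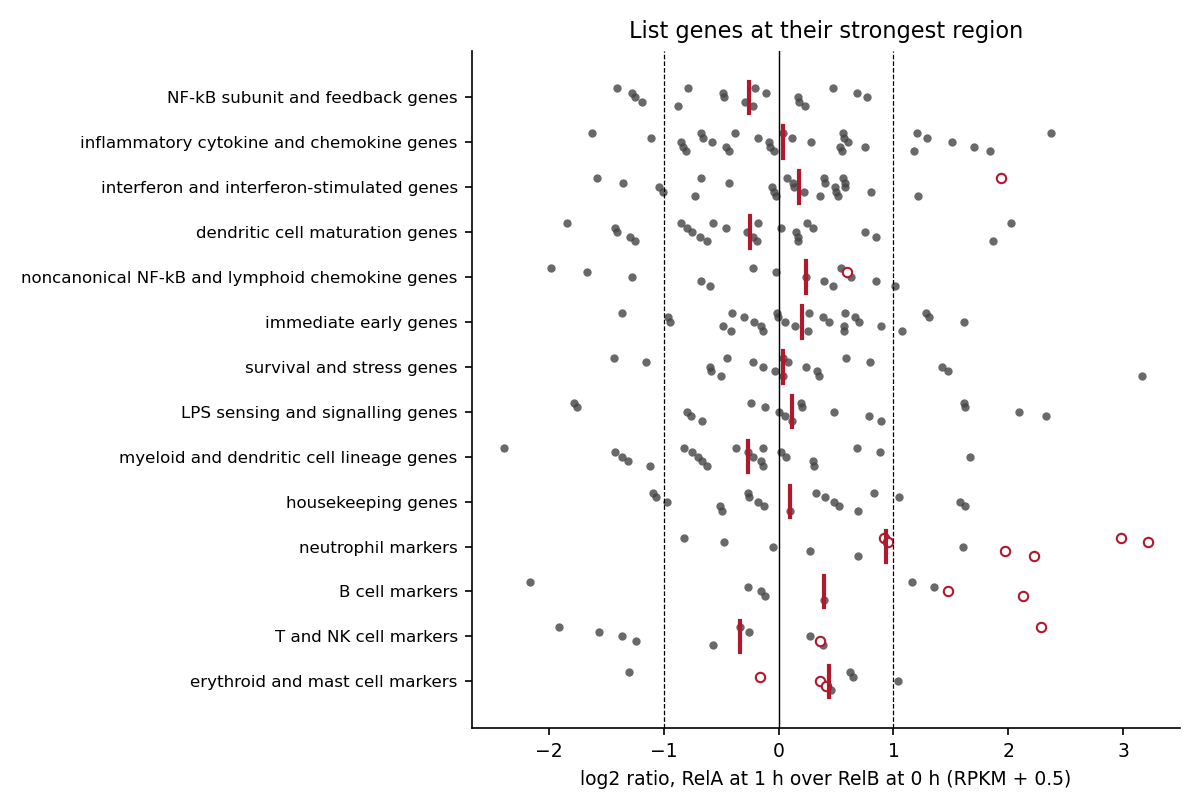
Log2 ratio of RelA at 1 h over RelB at 0 h (RPKM + 0.5) for each list gene at its strongest region, with 1 point a gene, red bars at the list medians and dashed lines at 2-fold. Filled points held both factors and open points did not. Of the 15 open points 6 are in the neutrophil list, and the NF-kB list has no point at or beyond 2-fold on the RelA side.

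With the libraries scaled to the input, the medians of the cytokine, interferon, noncanonical, immediate early, survival, LPS signalling and housekeeping lists and of all genes turned negative, at -0.20, -0.07, -0.02, -0.06, -0.21, -0.12, -0.16 and -0.14 on the log2 scale. Those of the NF-kB, maturation, lineage and T and NK cell lists stayed negative (-0.51, -0.50, -0.51 and -0.57), and those of the neutrophil, B cell and erythroid and mast cell lists stayed positive (0.62, 0.14 and 0.19). The number of genes with RelA 2-fold or more lower moved from 4 to 6 in the NF-kB list, from 2 to 5 in the cytokine list, from 1 to 3 in the immediate early list and from 0 to 1 in the neutrophil list, while over all genes it moved from 1779 to 2549. The number with RelA 2-fold or more higher moved from 7 to 5 in the cytokine list, from 2 to 1 in the interferon list and from 1 to 0 in the noncanonical and in the erythroid and mast cell lists, and over all genes from 2582 to 1537. Nfkbia, Cxcl16, Egr3, Actb and Cxcr2 were among the genes that then passed 2-fold. The choice of region moved the counts as well. Over all genes, 2681 were higher and 952 lower of 16036 with the region within 10 kb of the TSS, and 1642 higher and 611 lower of 18214 with regions averaged. The lower calls of the immediate early, survival and housekeeping lists fell to 0 under both choices, and those of the cytokine list to 1 within 10 kb and 0 with averaging.

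RelA regions without basal RelB were weak and distal. Of the 13601, 11106 were under 2 RPKM of RelB, and the other 2495 missed only the fold over input. Many held weak RelB signal: the median was 1.52-fold the input, 5003 stood at 1.5- to 2-fold and 6486 (47.7%) under 1.5-fold. Only 2227 (16.4%) were at or below the input. A clear difference, with RelA also 2-fold or more above basal RelB, was present at 8518, which is 11.1% of RelA regions. Here clear refers to the ratio of RelA to RelB. Of the 8518, 5632 (66.1%) stood under 1.5-fold over input for RelB, and 1096 had 2 RPKM or more of RelB. The 8518 had a median RelA of 4.25 RPKM, against 9.61 RPKM where both were present, and 4.68% were promoters, against 14.4%. Weak RelA regions held few promoters in general, 3.95% at 2 to 4 RPKM of RelA and 9.74% at 4 to 8. Of regions with neither factor 3.03% were promoters. Their median basal RelB was 1.07 RPKM, near 0.903 RPKM for the antibody in RelBko cells and 0.742 RPKM for the input. In libraries that did not define the set, 46.2% were enriched for RelB at 1 h, at a median of 2.20 RPKM, and 72.1% for RelA in RelBko cells, at a median of 3.44 RPKM. Of regions with both factors, 97.4% and 91.7% were enriched in these 2 libraries. The shares were 36.5% and 28.0% of regions with neither factor, and 81.7% and 75.9% of all regions.

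**Figure D4:**
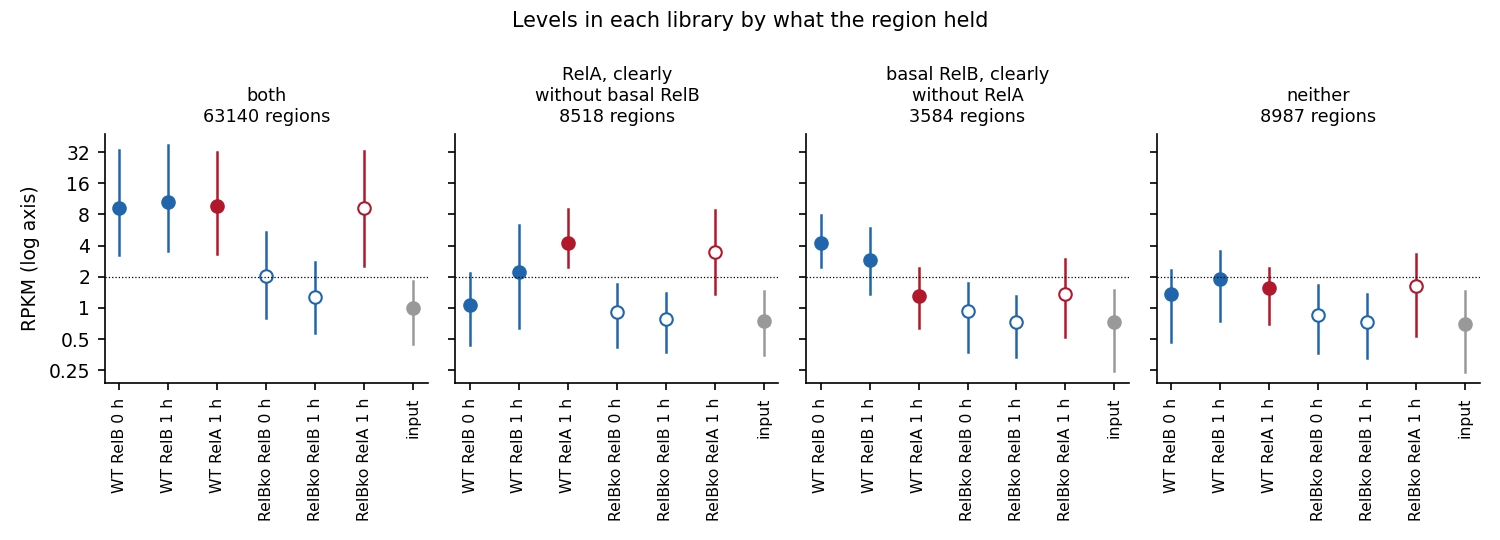
Median RPKM (points) and 10th to 90th percentile (lines) on a log axis in each of the 7 libraries, by whether a region held both factors, RelA clearly without basal RelB, basal RelB clearly without RelA, or neither. Open points are RelBko libraries, blue is RelB, red is RelA and grey the input, and the dotted line is at 2 RPKM. In the regions of RelA clearly without basal RelB, the medians of RelB were 1.07 RPKM at 0 h and 2.20 RPKM at 1 h.

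A basal RelB region often lay close by. Within 10 kb of the regions of RelA clearly without basal RelB, 60.8% had another region with basal RelB, against 78.9% around regions with both and 48.6% around regions with neither. For RelA regions of 16 RPKM or more without basal RelB the share was 82.8%. By gene, 17153 genes had at least 1 RelA region, 15895 (92.7%) had basal RelB in at least 1 of these and 9547 in all. Of the 1258 genes with none, 991 had a single RelA region, and the median of their strongest RelA region was 3.50 RPKM, against 15.9 RPKM for genes with some. The list genes had 149 regions of RelA clearly without basal RelB, though the genes themselves mostly had basal RelB at another region. The strongest of these lay in an intron of Batf, an AP-1 family factor, with 26.9 RPKM of RelA and 2.53 of basal RelB, while the region that stood for Batf had 69.0 and 42.8 RPKM.

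Strong RelA without basal RelB was rare. At 16 RPKM or more of RelA, 134 of 18842 regions (0.711%, 0.601 to 0.842) lacked basal RelB, of which 65 were in introns, 49 between genes and 7 in promoters. This count depends on the rule for enrichment and ran from 72 at 1.5-fold over input to 913 at 4-fold, was 687 with the libraries scaled to the input and 952 with the RelBko library at 0 h as the background of RelB. Of the 134, 99 (73.9%) were enriched for RelB at 1 h and 131 (97.8%) for RelA in RelBko cells. Over all 93611 regions these shares were 81.7% and 75.9%.

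Several of the regions with the largest ratios had RelB at 1 h but hardly any at 0 h. At a region 64501 bp from Lrrc32 (chr7:105707060-105707407), the gene of a protein that anchors latent TGF-beta, basal RelB was 1.88 RPKM, RelB at 1 h 22.1 RPKM, RelA 32.7 RPKM and RelA in RelBko cells 37.8 RPKM, against 1.31 RPKM in the input. RelA was 17.3-fold basal RelB (11.2 to 28.0). In an intron of Mtmr12 (chr15:12179769-12180350) the same values were 0.588, 16.3, 18.8 and 16.9 RPKM, with 0.651 RPKM in the input. A region near Khdc1a had 1.14, 25.03, 22.9 and 31.6 RPKM. At these 3 regions basal RelB was at 0.588 to 1.88 RPKM. They were picked by a ratio that low basal RelB raises, which favours a higher RelB value at 1 h.

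Other regions had less RelB at 1 h. The Dcbld2 promoter region (chr16:58408183-58408537) had 4.98 RPKM of RelB at 0 h, 8.42 at 1 h, 37.8 of RelA and 31.3 of RelA in RelBko cells, and its input was 2.35 RPKM. The RelB antibody in RelBko cells gave 4.51 RPKM there at 0 h. An intron of Ralgds, an exchange factor of Ral GTPases, had 4.78, 5.30, 36.7 and 33.6 RPKM, and a region near Gm20219 had 1.48, 0.673, 32.8 and 21.6 RPKM. Regions assigned to H2afy2, 9130019O22Rik and 1810053B23Rik had 31.6 to 32.1 RPKM of RelA and 1.79 to 3.01 RPKM of basal RelB. Intron regions of Cdk6, Gipc2, Sh3bp5 and 9130221F21Rik were also among the largest ratios, with 9.97 to 28.3 RPKM of RelA and 0.2502 to 1.60 RPKM of basal RelB. RelB at 1 h was 5.25 RPKM at Cdk6, 2.57 at Gipc2, 3.83 at Sh3bp5 and 5.10 at 9130221F21Rik, each above its value at 0 h. Picking by ratio favours regions with low basal RelB, and so a higher value at 1 h.

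A few of these regions stood out in other libraries. The region assigned to Fam172a, 269734 bp from its TSS, had 238 RPKM of RelA but also 78.5 RPKM in the input and 2803 RPKM with the RelB antibody in RelBko cells at 1 h. An exon region of Zc3h13 (chr14:75721377-75721544) had 56.5 RPKM of RelA from 167 reads and 0.340 RPKM of basal RelB from 2 reads, a ratio of 166 (45.4 to 1386) that was the largest among regions at 8 RPKM or more within 100 kb of a TSS, yet RelA in RelBko cells was at 0.248 RPKM there. Of the 134 regions, 3 that are named after their values were seen were not enriched for RelA in RelBko cells. They are that of Zc3h13, an exon of Rps6 (21.4 RPKM of RelA in WT, 1.33 in RelBko) and an intron of Igsf23 (16.6 and 1.55). The Igsf23 region (chr7:20528514-20528862) lies near Relb, whose promoter region is at chr7:20214655-20215034. Whether that position bears on its value in RelBko cells was not tested. A pair of regions near Abr, also named after their values were seen, lacked basal RelB only because of the input, with 61.7 and 59.2 RPKM of RelA, 56.1 and 51.5 RPKM of basal RelB and 29.2 and 26.4 RPKM in the input.

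Few strong basal RelB regions lacked later RelA. Of 18077 regions with 16 RPKM or more of basal RelB, 18 (0.0996%) lacked RelA, and of all 71023 basal RelB regions 3584 clearly did. In all, 7883 basal RelB regions lacked RelA and 13601 RelA regions lacked basal RelB, an order that turned with the libraries scaled to the input (10801 and 7649). The 3584 were distal, with 1.12% in promoters, and had medians of 4.26 RPKM of RelB at 0 h, 2.91 RPKM at 1 h and 1.29 RPKM of RelA. RelA in RelBko cells was enriched at 15.5% of them, against 28.0% of regions with neither factor and 75.9% of all regions. The 10 with most RelB were near or in 4930545L23Rik, Mkln1, Vegfc, Btbd10, Vrk2, Ghdc, Marcks, Pdha1, Try4 and Gm4311, with 17.7 to 33.2 RPKM of basal RelB and 1.39 to 3.62 RPKM of RelA. RelB at 1 h was below RelB at 0 h at each of the 10. At the region near Vegfc (chr8:55107062-55107383), a lymphatic growth factor gene, these were 15.95 and 24.1 RPKM. RelA there was 1.77 RPKM and the input 1.18. The set and these 10 were picked for RelB at 0 h, which favours a lower value at 1 h. By ratio, Parp8, Ero1lb, 4930548J01Rik and Wdr70 joined Vegfc, Btbd10, Gm4311, Mkln1, Vrk2 and Ghdc. The intron region of Ero1lb, an oxidase of the endoplasmic reticulum, had 31.6 RPKM of basal RelB and 2.53 RPKM of RelA, still enriched by the rule, a basal RelB signal 12.5-fold the RelA signal (7.33 to 23.0).

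Promoter sequence could be set beside the ratio for 5017 of 6211 genes with a region within the window around their start (80.8%, RefSeq, matched by transcript or symbol). A gene was counted where any of its windows held a match on either strand. The kB consensus was present in 5.14% of all 27025 genes with a window and in 9.31% of the 5017. By ratio, over the genes whose region was enriched in either library, it was present in 31.7% of 63 genes with RelA 2-fold or more below basal RelB, in 7.47% of 4233 within 2-fold and in 20.6% of 612 with RelA 2-fold or more above, reaching 37.3% of 51 at a log2 ratio of 2 or more. So both ends of the ratio held more kB matches than the middle. With the libraries scaled to the input these shares were 26.8%, 7.80% and 24.5%, and among genes with a single window 29.5%, 6.42% and 18.8%. The share was 5.61% at 2 to 4 RPKM of RelA, 4.75% at 4 to 8, 25.2% at 32 to 64 and 42.9% at 64 or more. The AP-1 motif TGANTCA was present in 27.0%, 7.30% and 7.68% of the same 3 groups and in 8.97% of all genes, and the PU.1 motif GAGGAAGT in 11.1%, 4.98% and 3.76%, and in 3.69% of all. Promoters of the first group had fewer CpG pairs, 11.2 per window against 22.8 and 20.2. The part of CpG content in these shares was not tested, and a match is not evidence of a bound site.

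**Figure D5:**
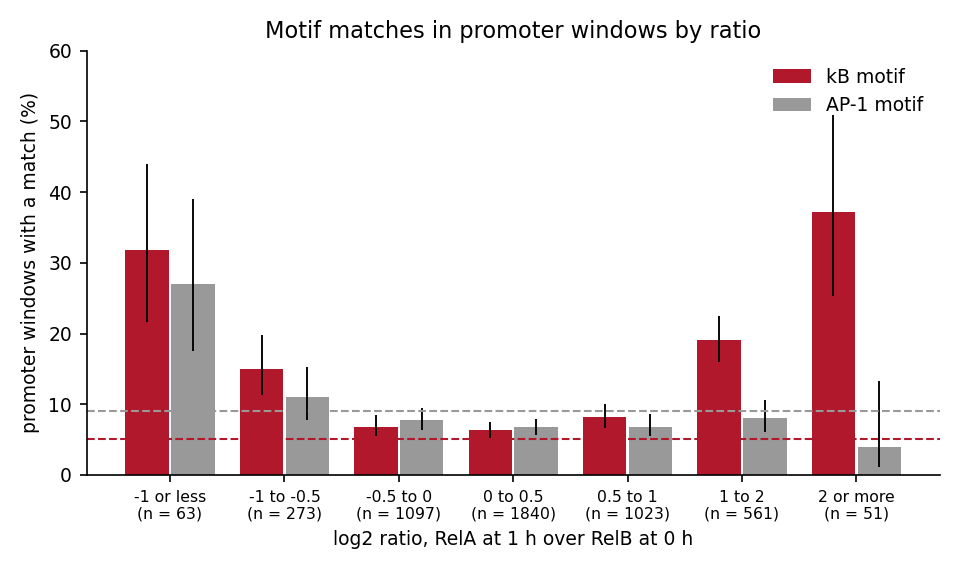
Percent of genes with a kB match (red) or an AP-1 match (grey) in their promoter windows, by log2 ratio of RelA at 1 h over RelB at 0 h at the promoter region, with Wilson 95% intervals and the number of genes below each pair. Dashed lines are the shares over all genes with a window. The kB share is highest at both ends, 31.7% and 37.3%, and the AP-1 share is highest where RelA was lower, 27.0%.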

How the data were processed

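The deposited table holds RPKM values calculated by the authors, per the file headers, for 7 libraries over 93611 regions in mm9, with the distance to the TSS and the nearest gene beside them. The submitters' processing notes name HISAT2, HOMER and bedtools; no version or role of these, and no rule for choosing regions, is given in the sources used here. RPKM times region length was a whole multiple of 1 value in each library (100% within 0.01 read), which gave the reads and library totals of 13188833 to 35064429. A read may have been added to every count before scaling. The rules for enrichment (2 RPKM, 2-fold, pseudocount 0.5 RPKM) and for regions 2-fold apart were applied in Python 3.11.15 with pandas 2.3.3 and scipy 1.17.1, and checked on simulated reads. With 1 library per group no test was run. Groups came from the sample titles, and all 7 were mapped.

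Named are the 3 members of each of 14 lists with the highest RelA, NF-kB genes 2-fold apart, the 8 genes of highest RelA and of highest basal RelB, 10 genes by ratio each way at 8 RPKM or more, and 10 by level in each set without the other factor. Other list members are named where they were 2-fold apart or lacked a factor. Members and lists were chosen with earlier results of these data known. The 12 alternatives were other pseudocounts, enrichment thresholds, scalings and backgrounds. Motif settings were added after the data were seen. A RelA library at 0 h was not analysed here. Some genes that the rule names are not reported here.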

Additional observations from a re-analysis of the deposited data

How the results depend on the processing

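The share of RelA-enriched regions with basal RelB was 82.3% and lay between 73.4% and 86.4% under the 12 settings tried. It was 83.3% with a pseudocount of 0.1 RPKM, 80.9% with 1 RPKM, 84.3% with enrichment at 1.5-fold over input, 77.7% at 4-fold (40042 regions with both), 84.1% with a minimum of 1 RPKM, 83.3% with 1 read taken off every value, 83.5% with the median ratio set to 1, and 86.4% with as many regions called for RelB as for RelA. Scaling both ChIP libraries to the input gave 83.7%, with 39272 regions with both, 7649 lacking basal RelB, 3846 clearly so, 10801 with basal RelB lacking RelA (7883 without scaling) and 5519 with RelA 2-fold or more higher. With the RelBko RelB library at 0 h as background it was 73.4%, with 20402 lacking. The causes were not tested.

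Of 86 named regions 54 were 2-fold apart. Under 5 settings none of these changed direction, but the settings were too mild to turn a 2-fold difference around, so direction was not tested by them. Of the 54, 2, Tfrc among them, fell under 2-fold in at least 1 setting. No paired analysis was possible because each group held 1 library, and none could be left out. At the median length 1 read is worth 0.210 RPKM in the input, so the fold over input is least certain in weak regions.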
